A study of Homo sapiens with 8 samples.

Results

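Broad control regions are stretches of at least 2000 bp in which untreated HEK293T cells gave KAS-seq peaks. They were chosen from the 2 control peak lists: the peaks of both lists on chromosomes 1 to 22 and X were merged, merged regions touched by both lists were kept, and those of 2000 bp or more were taken. This gave 876 broad regions of 15177 control regions, spanning 2.89 Mb, with widths from 2000 to 15086 bp and a median of 2642.5 bp. The other 14301 regions are called narrower regions. Because the control lists set the members and their borders, control values inside them are descriptions, while the vitamin C lists took no part in the choice.

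HEK293T is an established line from human embryonic kidney. Labelling was the same in both groups, 10 min with N3-kethoxal at 5 mM. The vitamin C group had first spent 10 min in medium with vitamin C at 0.5 mM, and the control group had not. Each group held 2 labelled libraries, each with a peak list of its own, and the 4 inputs are not analysed here. In the labels, the cell line name counted up from HEK293T to HEK300T over the samples, and the titles, which name HEK293T throughout, were followed. Nothing in the labels says whether replicates were separate cultures, so the spread between libraries may be technical.

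N3-kethoxal reacts with guanines that are not base-paired, so KAS-seq marks DNA that is single-stranded, as it is in the bubble around a transcribing RNA polymerase. Peaks are known to gather at promoters, along strongly transcribed genes and past their 3′ ends, and at tRNA genes, which are read by RNA polymerase III. A wide peak is thus a long stretch of opened DNA, often over a highly transcribed gene. Vitamin C (ascorbic acid) is a reducing agent that keeps Fe(II)-dependent dioxygenases, among them the TET and JmjC enzymes, in their active state.

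Among the broad regions lay 108 RefSeq promoter windows of 92 protein-coding genes, each running from 250 bases before to 50 bases after a gene start (GRCh38.p14, the same build as hg38). Upstream stretches of 6 of them are printed here because they show what was kept and what was lost. RCC1, CBX5 and RPL3 have starts inside some of the widest regions, and their windows were covered in full in all 4 lists. NPM1 has 2 listed starts in 1 region, and the pair of windows behaved differently. IFI35 was covered in full in both controls and at 0 bp in both vitamin C lists. The IFI35 window, chr17:43006534-43006833, lay near the border of its region, chr17:43001020-43006972, which holds RPL27 too. The NPM1 window given below as lost, chr5:171386866-171387165, lay near the border of its region at chr5:171386761. Edges of broad regions were covered less than their middles in all 4 lists, and the part of this position was not tested. NPM1 and IFI35 were picked after their values were seen. Each line gives the 150 bases before the start, 5′ to 3′ on the gene's strand. Capitals mark a match to the TATA box letters TATAAA, to the CCAAT box letters CCAAT or to the Sp1 core GGGCGG, on either strand.
RCC1, chr1:28505893-28506042, plus strand: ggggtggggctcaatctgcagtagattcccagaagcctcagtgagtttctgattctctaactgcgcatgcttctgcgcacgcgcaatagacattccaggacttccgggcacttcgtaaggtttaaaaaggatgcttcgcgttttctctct
CBX5, chr12:54280123-54280272, minus strand: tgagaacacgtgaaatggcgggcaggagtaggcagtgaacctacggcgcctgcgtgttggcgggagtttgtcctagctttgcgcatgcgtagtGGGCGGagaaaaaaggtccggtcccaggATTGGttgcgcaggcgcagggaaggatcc
RPL3, chr22:39319624-39319773, minus strand: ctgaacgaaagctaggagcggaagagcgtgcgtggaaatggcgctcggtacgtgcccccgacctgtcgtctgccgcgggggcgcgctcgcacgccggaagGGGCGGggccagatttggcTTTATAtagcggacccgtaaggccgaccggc
NPM1, start kept, chr5:171387699-171387848, plus strand: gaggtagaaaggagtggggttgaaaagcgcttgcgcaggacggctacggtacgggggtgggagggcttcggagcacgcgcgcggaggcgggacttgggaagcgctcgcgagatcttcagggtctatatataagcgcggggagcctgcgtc
NPM1, start lost, chr5:171386966-171387115, plus strand: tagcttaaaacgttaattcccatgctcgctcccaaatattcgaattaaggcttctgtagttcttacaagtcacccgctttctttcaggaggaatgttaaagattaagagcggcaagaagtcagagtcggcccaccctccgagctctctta
IFI35, chr17:43006634-43006783, plus strand: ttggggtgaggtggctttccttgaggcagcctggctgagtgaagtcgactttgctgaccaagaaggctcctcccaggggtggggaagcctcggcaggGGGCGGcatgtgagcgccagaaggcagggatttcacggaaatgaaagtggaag

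At the NPM1 start that was kept, all 300 bases of the window lay under a peak in control 1, control 2, vitamin C 1 and vitamin C 2. At the other start, control 1 covered 199 bases and control 2 covered 300, and both vitamin C lists covered 0. NPM1 encodes nucleophosmin, an abundant nucleolar chaperone. The G+C share of the 250 upstream bases was 67.6% at the kept start and 46.4% at the other. RCC1 (a guanine nucleotide exchange factor of chromatin) had 52.4%, CBX5 (heterochromatin protein HP1 alpha) 54.8%, RPL3 (a protein of the large ribosomal subunit) 62.0% and IFI35 (an interferon-induced protein) 55.2%.

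Over the 108 windows, the whole window was covered in 88.9% in control 1, 71.3% in control 2, 50.9% in vitamin C 1 and 38.0% in vitamin C 2. In both vitamin C lists 38 windows were covered whole, and 13 had 0 covered bases. Within the 250 upstream bases, TATAAA occurred on either strand in 18.5% of the broad-region windows, against 9.0% of all 22131 windows of the table. CCAAT occurred in 49.1% against 32.7%, and GGGCGG in 43.5% against 53.7%. The median G+C share was 55.6% against 62.0%. The 651 windows inside any control region include the 108. They had 11.7% with TATAAA, 47.6% with CCAAT, 52.4% with GGGCGG and a median G+C share of 56.8%, so for CCAAT and G+C both sets were close. Many of the 20 broad-region windows with TATAAA were of histone genes: H2AC6, H2AC17, H2AC20, H2BC4, H2BC5, H2BC12, H2BC17, H2BC21 and H4C11. Some of these windows overlap each other, such as those of H2AC20 and H2BC21. The share of 18.5% thus rests in large part on histone genes. These matches are descriptions of the letters, and several windows belong to the same gene.

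With vitamin C, the broad regions were mostly still marked by peaks, but by shorter and more numerous ones. In control 1 the peaks covered 2.64 Mb of the 2.89 Mb, and in control 2 2.44 Mb. In vitamin C 1 they covered 1.55 Mb, and in vitamin C 2 1.45 Mb. As shares of the length these are 91.6%, 84.7%, 53.8% and 50.3%. The control mean was 2.54 ± 0.140 Mb and the vitamin C mean 1.502 ± 0.0704 Mb (SD, n = 2 libraries each), a log2 ratio of -0.76. Both vitamin C libraries lay below both controls. The control values are high partly by the rule, which drew the regions from these lists, so this is a description, and regions drawn from 1 control are given further on. With 2 libraries against 2, the exact two-sided permutation test cannot give a p below 0.33. Of the 876 regions, 817 (93.3%) were covered less in each vitamin C list than in each control list, and 0 were covered more in each. Over all control regions these shares were 86.1% and 0.0725%, so a loss of covered bases was common to broad and narrower regions.

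The number of peaks inside the broad regions went the other way. Control 1 had 1292 peaks in them, control 2 1399, vitamin C 1 1658 and vitamin C 2 1742, means of 1345.5 ± 75.7 and 1700.0 ± 59.4 (SD, n = 2), a log2 ratio of 0.34. The whole lists were shorter at the same time, with 9816 and 9896 vitamin C peaks against 30351 and 24111 control peaks. Regions holding 2 or more peaks numbered 341 in control 1, 410 in control 2, 494 in vitamin C 1 and 537 in vitamin C 2. Where control peaks up to 500 bp apart were joined before the regions were chosen, the ratio of peak numbers turned to -0.50. With only control 2 or only control 1 used to draw the regions, it was 0.93 or 0.94, since each region was then 1 control peak by construction.

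**Figure D1:**
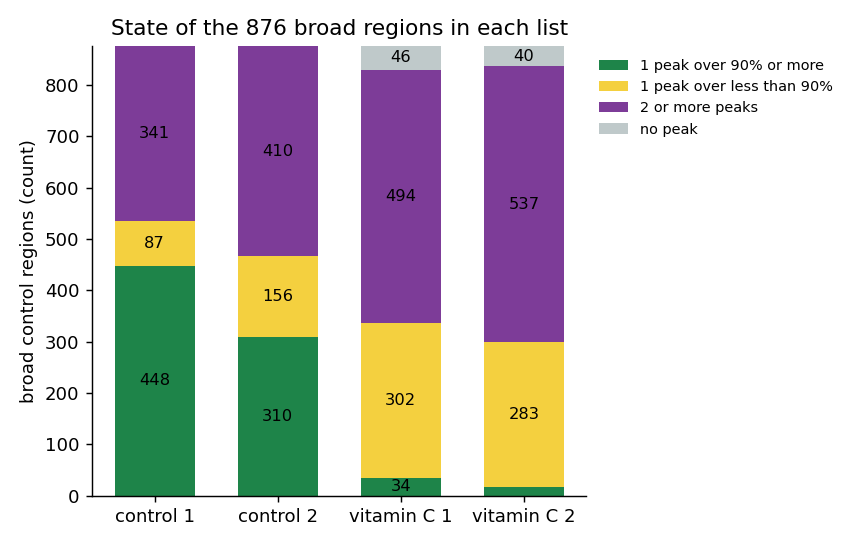
Count of the 876 broad regions (vertical axis) in each of 4 states, for each peak list (bars): 1 peak over 90% or more of the region, 1 peak over less than 90%, 2 or more peaks, or no peak. The first state holds 448 and 310 regions in the controls against 34 and 16 with vitamin C, while regions with 2 or more peaks number 341 and 410 against 494 and 537.

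A nearly whole region, with 1 peak over at least 90% of its length, was the commonest state in control 1 (448 regions) and stood at 310 in control 2. It was found for 34 regions in vitamin C 1 and 16 in vitamin C 2, and for 11 in both. A shrunken region, with 1 peak over less than 90%, was found 87 and 156 times in the controls, against 302 and 283 times with vitamin C. No peak at all was left in 46 regions in vitamin C 1 and in 40 in vitamin C 2. The longest unbroken stretch in a region had a median of 2282.5 bp in control 1, 2109.5 bp in control 2, 996 bp in vitamin C 1 and 865 bp in vitamin C 2. It reached 2000 bp or more in 597, 493, 156 and 114 regions. These counts describe regions that the control peaks defined, so a control always had a peak in them and long control stretches were favoured by the choice.

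A peak was found in both vitamin C lists for 808 of the 876 broad regions, 92.2% (exact Clopper-Pearson 95% interval 90.3% to 93.9%, for counting error only). Over all 15177 control regions the share was 33.1%, and over the narrower ones 29.5%. Only 18 broad regions (2.05%) had a peak in neither vitamin C list, against 42.0% of all control regions. At least 2 peaks in each vitamin C list were found in 392 broad regions (44.7%, 41.4% to 48.1%), against 3.37% of all control regions and 0.832% of the narrower ones, which have less room for them. In each control list, at least 2 peaks were found in 166 of the same 876 regions (18.9%), so part of them were already split without vitamin C. Counting a region only where at least 50% of it was covered left 38.8% in both vitamin C lists. Joining peaks of a list up to 500 bp apart left 167 regions with 2 or more, so many of the breaks were short.

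Over all broad regions, more bases were bare at the edges than in breaks inside, but not in those of 5000 bp or more. Uncovered bases were split into edge bases, which lie outside the span from the first to the last covered base of a region, and gap bases inside that span. Edge bases made up 3.67% of the total length in control 1, 7.80% in control 2, 26.9% in vitamin C 1 and 28.6% in vitamin C 2. Gap bases made up 4.75%, 7.48%, 15.7% and 17.9%. Of the uncovered bases in regions that still had a peak, 43.6% (control 1), 51.0% (control 2), 63.0% (vitamin C 1) and 61.5% (vitamin C 2) were at the edges. With vitamin C the edge share was 51.1% and 49.3% in regions of 3500 to 4999 bp and 36.9% and 36.3% in those of 5000 bp or more. It was 47.2% with a width limit of 3000 bp and 49.6% where both controls had to share 2000 bp.

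**Figure D2:**
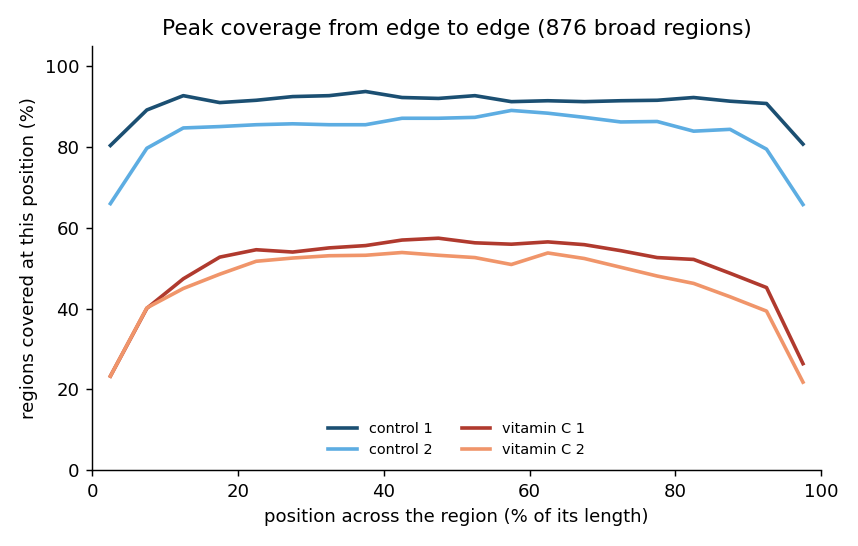
Share of the 876 broad regions covered by a peak (vertical axis, %) at 20 positions from one edge to the other (horizontal axis, % of the region's length), 1 line per list. In the outermost position on the left, control 1 covers 80.4% of the regions, control 2 66.0% and each vitamin C list 23.3%. The vitamin C lines stay below both controls across the whole width.

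The point of strongest control signal mostly stayed under a peak. The summit of the highest control 1 peak in each region was still under a peak in 85.7% of regions in vitamin C 1 and 84.0% in vitamin C 2. For the control 2 summits the shares were 84.6% and 83.8%. These are well above the covered shares of the length, 53.8% and 50.3%. Between the controls, 97.3% of control 1 summits lay under a control 2 peak. Of the control 1 summits 58.8% lay in the middle 50% of the region, where coverage was also higher than at the edges in all 4 lists, and the part of this position in the result was not tested.

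Both vitamin C lists largely covered the same bases of the broad regions. Between them 1.18 Mb were shared, 76.0% of the bases of the first and 81.3% of those of the second, and shared bases over all covered ones came to 0.647, against 0.763 between the controls. Over the 876 regions the covered shares in the 2 vitamin C lists had Pearson's r of 0.763 and Spearman's rho of 0.765, as a description of regions that share their libraries.

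Choosing regions from 1 control alone leaves the other control unused by the choice, so that it can be set beside the vitamin C lists. From control 1 came 617 regions. Control 2 covered 84.0% of their length, vitamin C 1 62.2% and vitamin C 2 57.7%. From control 2 came 514 regions, of which control 1 covered 91.3%, vitamin C 1 67.0% and vitamin C 2 63.6%. The log2 ratio of vitamin C to the held-out control averaged -0.49 over both choices, smaller in size than the -0.76 of the regions drawn from both controls.

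**Figure D3:**
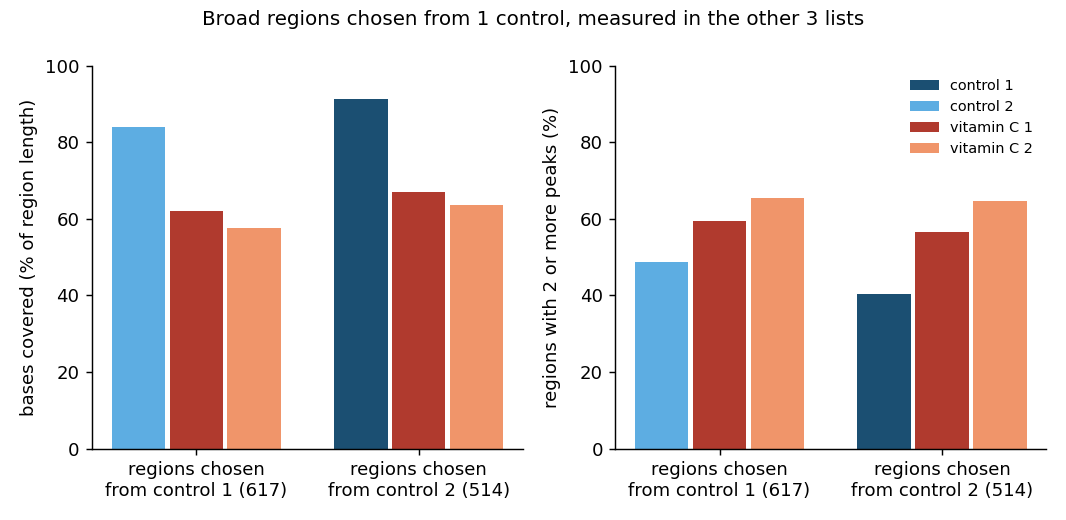
Left, share of region length covered (%); right, share of regions with 2 or more peaks (%), for the 617 regions chosen from control 1 and the 514 chosen from control 2, each measured in the 3 lists not used to choose them (bars). The held-out control has the tallest bar on the left and the shortest on the right in both sets.

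Breaking up was also seen against the held-out control. In the 617 regions, 300 (48.6%) held 2 or more peaks in control 2, 366 (59.3%) in vitamin C 1 and 403 (65.3%) in vitamin C 2. In the 514 regions, 208 (40.5%) did so in control 1, 291 (56.6%) in vitamin C 1 and 333 (64.8%) in vitamin C 2. Fragmentation was thus already common between untreated libraries and was higher with vitamin C. The held-out control had a peak in every one of these regions, while vitamin C 1 lacked one in 12 and 9 of them and vitamin C 2 in 19 and 8.

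Wide peaks can also be counted in each list by itself, without any chosen region. Control 1 had 617 peaks of 2000 bp or more, control 2 514, vitamin C 1 165 and vitamin C 2 125, means of 565.5 ± 72.8 and 145 ± 28.3 (SD, n = 2), a log2 ratio of -1.97 (exact two-sided permutation p = 0.33, the smallest possible). As shares of their lists these were 2.03%, 2.13%, 1.68% and 1.26%. Each vitamin C share lay below each control share, with a mean difference of -0.610 percentage points (exact permutation p = 0.33). Regions of 2000 bp or more drawn in the same way from the vitamin C lists numbered 224, and 223 of them overlapped a broad control region. The exception lay in HNRNPK, which encodes an RNA-binding protein, at chr9:83970302-83972682, where control 1 covered 2004 bp and control 2 2007 bp of its 2381 bp.

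Peaks in the broad regions were also lower with vitamin C. Height is given as labelled fragments at the highest summit over an estimate of the library's fragments per genome position. Both were solved from the authors' fold and p-value, the estimate from near the lowest background found at the summits. Its median over the regions with a peak was 39.2 in control 1, 35.9 in control 2, 27.8 in vitamin C 1 and 27.0 in vitamin C 2. Of the 808 regions with a peak in all 4 lists, 694 (85.9%) were lower in each vitamin C list than in each control, and 2 were higher. Over all 5028 control regions with a peak in all 4 lists, 76.7% were lower in each and 0.676% higher. The estimated fragments per position were 0.817, 0.849, 1.22 and 0.871. For vitamin C 1 a scale of 0.776 on the fragments was fitted, and the other lists were solved unscaled. Neither vitamin C value lay below the controls, but total reads were not analysed, and the part of depth in the result was not tested.

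Taken over their total length, broad regions kept more than narrower ones. In the narrower regions vitamin C 1 covered 28.5% and vitamin C 2 26.6%, against 53.8% and 50.3% in the broad ones, a mean difference of 24.5 percentage points. The controls covered 83.7% and 79.1% of the narrower regions. Regions with no peak in vitamin C 1 or vitamin C 2 made up 46.9% and 49.0% of the narrower length. For the broad regions these shares were 3.59% and 3.15%. The difference thus lay mainly in regions left with no peak, not in how much a region with a peak kept. Broad regions made up 16.9% and 18.9% of the covered length of the control lists and 31.6% and 30.7% of the vitamin C lists. The difference shrank to 11.3 points with lists of equal length and to 12.3 with control peaks joined up to 500 bp apart, and it grew to 38.5 or 37.4 with regions drawn from control 2 or control 1 alone. Control enrichment moved with width as well: the median of the authors' fold at the strongest peak was 13.1 and 11.9 in the broad regions and 6.88 and 6.49 in the narrower ones, and its part in the result was not tested.

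**Figure D4:**
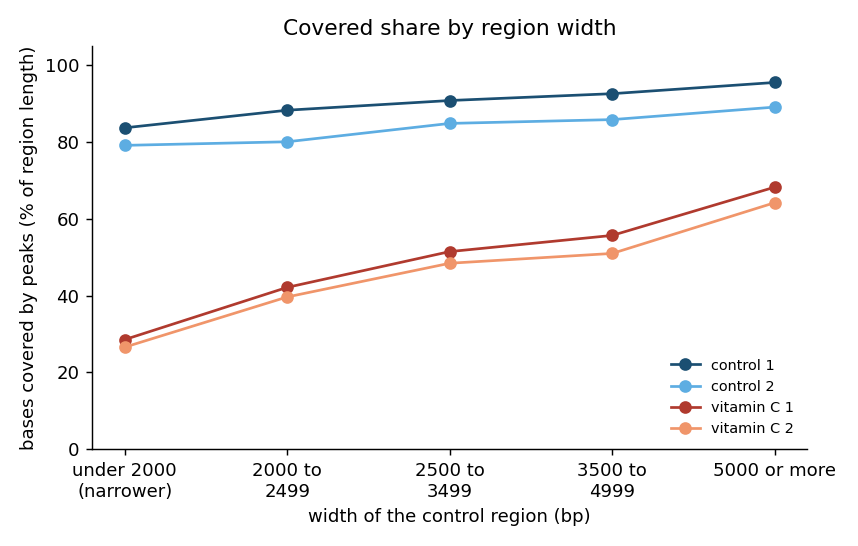
Share of region length covered by peaks (vertical axis, %) against the width of the control region (horizontal axis, bp), 1 point per list and class. With vitamin C the share goes from 28.5% and 26.6% in narrower regions to 68.2% and 64.2% in regions of 5000 bp or more, and stays below both controls in each class.

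Within the broad regions, the wider ones stayed most. In the 370 regions of 2000 to 2499 bp, vitamin C 1 covered 42.1% and vitamin C 2 39.6%, and 17 of the 18 regions met in neither list were here. In the 271 regions of 2500 to 3499 bp they covered 51.4% and 48.4%, in the 133 of 3500 to 4999 bp 55.7% and 51.0%, and in the 102 of 5000 bp or more 68.2% and 64.2%. The share with 2 or more peaks in both vitamin C lists went from 16.5% to 48.7%, 83.5% and 86.3% over the same classes. Per list, the narrowest class had 121 (control 1), 131 (control 2), 124 (vitamin C 1) and 131 (vitamin C 2) split regions, so both groups overlapped there. The widest class had 56, 82, 92 and 97 of 102 in the same order. Many of the widest regions were thus split without vitamin C too. Control enrichment ordered the regions too. By the control fold, the lowest 292 regions were covered to 34.3% and 32.5% with vitamin C, the middle 292 to 51.2% and 48.1%, and the highest 292 to 67.5% and 62.8%. Over all 876, the mean vitamin C share had a Spearman rho of 0.344 with width and of 0.534 with the control 1 fold.

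At the threshold itself, the narrowest member lay in GOLM1 (a Golgi membrane protein) and was 2000 bp wide, with 1187, 1641, 383 and 0 bp covered in control 1, control 2, vitamin C 1 and vitamin C 2. Next came regions in RAB26, SF1 and near GPR83, each of 2004 bp, and in CCT7, of 2008 bp. Just outside were regions in SRRM2, ADCY3, FAM83E with RPL18, and SUMO2, each of 1999 bp, and in LOC124904958, of 1997 bp. The region in SRRM2, which encodes a splicing scaffold, had 1749, 1622, 1275 and 377 bp covered. Values on both sides of the limit thus overlapped.

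A larger share of the broad than of the narrower regions lay at the 3′ ends of genes. RefSeq positions of protein-coding genes were used, with the strand of a gene where the promoter table lists it (79.2% of 19970 genes). A region touching a 3′ end but no start made up 230 of the broad regions (26.3%), against 3.26% of the narrower ones. Regions lying inside a gene made up 25.8% against 50.6%, and regions touching only a start 7.08% against 5.49%. A further 145 (16.6%) lay within 10 kb downstream of a gene, at a median of 848 bp from its 3′ end, and 116 lay in a gene of unlisted strand. A wide region has more room to touch a gene end, so these shares depend on width.

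Coverage with vitamin C differed between places. At 3′ ends vitamin C 1 covered 58.4% and vitamin C 2 54.9%, and inside genes 45.6% and 43.1%. Regions touching only a start had 59.8% and 56.4%, and the 33 that held both a start and a 3′ end had 68.6% and 62.7%. Downstream regions had 48.8% and 45.1%. The 40 regions away from protein-coding genes, among them the XIST and U1 snRNA loci, had 66.8% and 64.6%. In each vitamin C list the inside regions lay below the 3′ end regions, as they did in each control. Control 1 covered 90.6% inside genes and 93.2% at 3′ ends, and control 2 covered 79.6% and 86.6%. Inside regions were also narrower, with a median of 2512 bp against 3282 bp, and had a lower median fold in both controls. The part of width and of control enrichment in the differences between places was not tested.

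At 153 of the 3′ end regions with only 1 protein-coding gene, the region could be split at the gene's end. They reached a median of 1036 bp into the gene and 2104 bp past it, and at most 8446 bp past it. Inside the gene the lists covered 91.4% (control 1), 84.3% (control 2), 53.5% (vitamin C 1) and 48.7% (vitamin C 2). Downstream of it they covered 93.6%, 88.9%, 63.8% and 60.6%. The downstream side was higher in each list, by 2.16 and 4.65 percentage points in the controls and by 10.3 and 11.8 with vitamin C. No base inside the gene was covered in 46 and 42 of the 153 regions with vitamin C and in 7 and 13 in the controls, while the downstream side was bare in 9 and 13 with vitamin C and in 0 and 3 in the controls. Some inside pieces were short, down to 19 bp at RPL22, and a short piece is more easily bare.

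**Figure D5:**
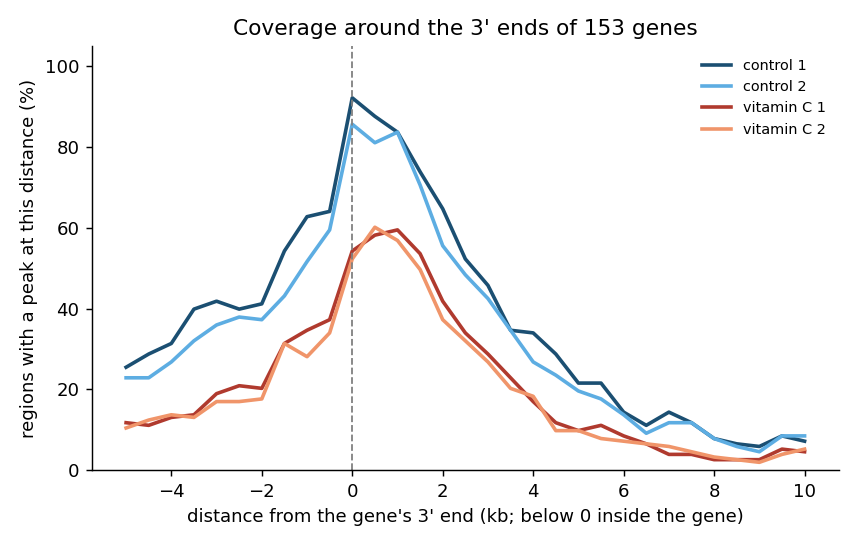
Share of 153 genes with a peak (vertical axis, %) at points every 500 bp around the 3′ end (horizontal axis, kb, below 0 inside the gene), 1 line per list. At the 3′ end itself the shares are 92.2% (control 1), 85.6% (control 2), 54.2% (vitamin C 1) and 52.3% (vitamin C 2). At 1000 bp downstream they are 83.7% in both controls and 59.5% and 56.9% with vitamin C.

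Regions that hold tRNA or snRNA genes were well kept. In the 18 with a tRNA gene vitamin C 1 covered 74.5% and vitamin C 2 73.6%, and only 3 were broken in both lists. The 19 with an snRNA gene, which encode the RNAs of the spliceosome and their kin, had 76.6% and 75.2%, with 0 broken in both. The 45 with a snoRNA gene, which lie mostly in introns of host genes, had 66.6% and 62.3%, and 32 of them were broken in both. Many of these were already split without vitamin C: 27 and 31 held 2 or more peaks in the controls, against 34 and 37 with vitamin C. For tRNA regions these counts were 3 and 0 against 3 and 5, and for snRNA regions 1 and 0 against 1 and 3. The 791 regions without a small RNA gene had 51.6% and 48.2%. Median widths were 2330.5 bp with a tRNA gene, 2598 bp with an snRNA gene and 4608 bp with a snoRNA gene, and all regions of 2000 to 2499 bp had 42.1% and 39.6%. Control enrichment of these groups differed too, with medians of the authors' control 1 fold of 51.3 (tRNA), 34.1 (snRNA) and 21.9 (snoRNA) against 12.4 without a small RNA gene, and its part in the result was not tested. Narrower regions with a tRNA gene were covered to 70.9% and 69.0% with vitamin C, and those with an snRNA gene to 71.9% and 71.8%. Those with a snoRNA gene had 41.5% and 34.2%. For tRNA and snRNA genes, high coverage with vitamin C was thus not particular to broad regions.

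XIST and ZFAS1, among the widest loci, show how breaking up looks. XIST, the long non-coding RNA of X inactivation, filled 3 broad regions, of which the widest was the widest of all, at chrX:73824751-73839836 (15086 bp). Its peaks covered 14272 bp in control 1, 13792 bp in control 2, 10410 bp in vitamin C 1 and 10475 bp in vitamin C 2. It was split into 4, 3, 11 and 10 peaks. Over all 3 regions, there were 7, 8, 21 and 20 peaks, covering 37747, 34748, 30390 and 29283 bp. ZFAS1, a host of snoRNAs, had 13982 bp at chr20:49278412-49292393, with 13434, 13381, 12190 and 10943 bp covered by 3, 2, 5 and 7 peaks. At ZFAS1 and in the widest XIST region, each vitamin C list had fewer covered bases and more peaks than either control.

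Other wide regions were broken to differing degrees. RCC1 shares its region, chr1:28504932-28518013 (13082 bp), with the snoRNA host SNHG3 and with SNORA73A and SNORA73B. Its covered length was 13077, 12241, 12522 and 12332 bp, so that the vitamin C values lay between the controls. The region of CBX5 and HNRNPA1, chr12:54278853-54291387 (12535 bp), had 12535, 12016, 10813 and 10601 bp under 1, 1, 1 and 2 peaks. TPT1, which encodes the translationally controlled tumour protein, had 11972, 11450, 8611 and 9084 bp of 12211 bp, with 2, 2, 3 and 5 peaks. RPL3 lost more: 11116, 10783, 7309 and 5843 bp of 11442 bp, with 2, 3, 6 and 6 peaks.

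Among the regions with the most vitamin C peaks, after XIST, were SNX5 (a sorting nexin, 3, 3, 7 and 7 peaks) and MIR17HG (the host of the miR-17 cluster, 2, 2, 5 and 9). ZFAS1, RPL3, NPM1 and the RPL31 and TBC1D8 region were also among them. In NPM1, chr5:171386761-171396285, the lists covered 9076, 8935, 4643 and 5074 bp of 9525 bp, in 3, 2, 7 and 5 peaks. In each of these named regions, both vitamin C lists had more peaks than either control. They were picked for their many vitamin C peaks, so the choice favoured this. Among all 876 members, 173 (19.7%) had more peaks in each vitamin C list than in each control and 38 (4.34%) had fewer. Over all control regions these shares were 1.53% and 42.2%. Of the 291 regions that were 1 peak in both controls, 88 had 2 or more in both vitamin C lists, 96 had 1 in both, and 4 had none in either.

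Among the 8 best-kept regions were 2 with tRNA genes, 2 with U1 snRNA genes and 1 at an actin gene. At HES7 the region chr17:8118922-8121402 holds 4 tRNA genes, and 2451, 2481, 2409 and 2451 bp of its 2481 bp were covered, always by 1 peak. The region of BORCS6, also with 4 tRNA genes, had 2236, 2241, 2140 and 2136 bp of 2242 bp. RNU1-1 and RNU1-2, genes of the U1 spliceosomal RNA, had 2339, 2322, 2308 and 2312 bp of 2381 bp, and 2585, 2621, 2475 and 2492 bp of 2623 bp. ACTG1, which encodes cytoplasmic gamma-actin, had 3344, 3041, 3159 and 3158 bp of 3344 bp. YDJC (3627, 3555, 3578 and 3537 bp of 3722 bp) and a region away from protein-coding genes at chr6:85672541-85674780 (2167, 2240, 2105 and 2126 bp of 2240 bp) were also among the 8, with RCC1. Peak heights were lower even where the length was kept: at HES7 they were 168.0 and 145.0 in the controls against 103.0 and 121.0, and at RNU1-1 124.0 and 132.0 against 86.5 and 83.8.

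At the other end, 18 regions had 0 bp in both vitamin C lists. The widest of them lay downstream of PCGF6, at chr10:103299960-103302478 (2519 bp), where control 1 had covered 811 bp and control 2 2517 bp. Downstream of C19orf53, 2223 and 2159 bp of 2410 bp had been covered. The region in CCNL1, which encodes a cyclin, had 2340 and 389 bp of 2340 bp in the controls. Regions in RPS3 (1763 and 1289 bp of 2253 bp), near UBR3, in PURPL and near COX5A were lost likewise. Control heights of the regions named here were low, from 11.8 to 23.3, against medians of 39.2 and 35.9 over all members. All 18 were in the lowest of the 3 classes of control fold.

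Several genes held more than 1 broad region, 107 in all. HNRNPC, which encodes a pre-mRNA binding protein, had 7, of 25732 bp together, with 22837, 20868, 11444 and 12677 bp covered. NPM1 had 4 regions of 29348 bp together, with 28095, 27422, 18458 and 17220 bp, and SLC3A2, the heavy chain of amino acid transporters, 4 with 14877, 13292, 9780 and 11241 bp of 14926 bp. The widest SLC3A2 region is also that of the snoRNA host SNHG1. RPS3 had 4, with 10834, 9369, 4915 and 4558 bp of 11959 bp, among them the one that was lost. Within 1 gene, then, regions could be kept or lost.

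Gene lists were read by how many of their genes a broad region overlapped. A protein-coding gene overlapped a broad region in 639 of 19970 cases (3.20%). Of the cytosolic ribosomal protein genes 56 of 79 did, of translation factors 16 of 33, of splicing factors and hnRNPs 28 of 47, and of snoRNA host genes 16 of 21. Chaperones had 14 of 29, DNA replication genes 8 of 30, replication-dependent histones 18 of 74, zinc finger genes 15 of 518, and immediate early genes 1 of 27, JUN. RNA polymerase II and pausing genes had 0 of 37, and a list of genes typical of other tissues 0 of 40. The peaks carry no strand, so a region over 2 genes cannot be assigned to either.

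The 82 regions over ribosomal protein genes had a median covered share of 64.0% in vitamin C 1 and 57.6% in vitamin C 2, and 55 of them held 2 or more peaks in both. All 626 regions over protein-coding genes had medians of 51.8% and 47.3%, and 309 of them held 2 or more in both. The ribosomal protein regions were wider, with a median of 3837 bp against 2724 bp, and the part of width in these values was not tested. RPL3 and RPL31 (6160 and 6492 bp of 9361 bp with vitamin C, 9093 and 8368 bp in the controls) were the widest. The 22 regions of translation factors had 61.3% and 49.7%. EEF1A1, the elongation factor that brings tRNA to the ribosome, had 6129, 6100, 4974 and 5326 bp of 6430 bp. The 48 regions of splicing factors and hnRNPs had 62.5% and 58.2%, with HNRNPAB at 9967, 9462, 6471 and 7238 bp of 10199 bp. The 18 regions of snoRNA hosts had 66.5% and 62.9%. MALAT1, a nuclear long non-coding RNA, had 4079, 3936, 3884 and 3776 bp of 4305 bp.

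Some lists had lower medians. The 10 regions of DNA replication genes had 35.7% and 41.3%, at a median width of 2308.5 bp, where all regions of 2000 to 2499 bp had medians of 42.2% and 36.0%. Among them MCM7, a subunit of the replicative helicase, had 3920, 4334, 1389 and 2140 bp of 4726 bp, and RFC4, of the clamp loader, 5751, 4468, 3770 and 4561 bp of 5751 bp. The RFC4 region is also that of EIF4A2, a gene of the translation factor and snoRNA host lists. The 7 regions of glycolysis genes, of 2246 bp at the median, had 42.2% and 40.3%, with GAPDH at 4408, 3849, 3857 and 2721 bp of 4657 bp and ENO1 at 3058, 2392, 721 and 1233 bp of 3058 bp. Of the G2 and mitosis genes, CCNB1 (cyclin B1) had 2250, 2838, 624 and 1203 bp of 2838 bp and FOXM1, a transcription factor, 1278, 2068, 542 and 481 bp of 2452 bp. In HOXA3, a homeobox gene, the widest region had 2693, 1886, 582 and 476 bp of 2696 bp. In RFC4 and GAPDH a vitamin C list reached a control list, and in the others named here both vitamin C lists lay below both controls.

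Among chaperones, HSP90AB1 had 5427, 5654, 3903 and 3991 bp of 6084 bp and HSPA8 4574, 4031, 3484 and 2513 bp of 4574 bp. Some less wide broad regions of the same list were nearly or wholly lost. CCT6A, a chaperonin subunit, had 1489, 1976, 0 and 0 bp of 2009 bp. HSPA9, the mitochondrial HSP70, had 1224, 1640, 0 and 242 bp of 2301 bp, and CCT2 1731, 2045, 0 and 230 bp of 2067 bp. Others of like width kept more. CCT5 had 2056, 2111, 1571 and 1803 bp of 2121 bp, and HSPA4 2183, 1823, 1416 and 1252 bp of 2279 bp. HSPA5 had 2051, 906, 1079 and 1177 bp of 2051 bp, so both vitamin C values lay above control 2. CCT6A, HSPA9 and CCT2, and PSAT1 in the stress and amino acid list, were chosen after their values were seen. The cytoskeletal list had 5 of 27 genes and medians of 79.2% and 70.8%, with ACTB at 5463, 4802, 4687 and 3687 bp of 5638 bp and PFN1 (profilin) at 3381, 3323, 3313 and 2795 bp of 3381 bp. In the list of NRF2 targets, ascorbate and iron handling, 5 of 26 genes had a region, and PRDX1, a peroxiredoxin, had 4630, 3340, 3510 and 2151 bp of 4630 bp. Of the Fe(II) and 2-oxoglutarate dioxygenases 1 of 32 did, the histone demethylase PHF2, with 2050, 1946, 1880 and 1636 bp of 2050 bp. JUN, a subunit of AP-1, had 2308, 2811, 1842 and 1404 bp of 2811 bp. The stress and amino acid list had 4 of 19 genes. SLC3A2 had 7430, 6995, 5908 and 6887 bp of 7436 bp in its widest region, which is also that of the snoRNA host SNHG1. ATF4 had 7014, 7000, 5513 and 4823 bp of 7306 bp, and PSAT1 2155, 1535, 0 and 459 bp of 2196 bp.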

How the data were processed

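The submitters' processing notes name MACS2 (2.2.7.1), the build hg38, Bowtie2 (2.4.5), Trim Galore, cutadapt, deepTools and bcl2fastq (2.19). For order and settings, none was given in the sources used here. The 4 deposited peak lists give the authors' start, end, summit, fold enrichment (a linear ratio) and −log10 p-value and q-value. From these, labelled fragments at each summit were solved (tolerance 0.005 in −log10 p), which worked for 100% of the peaks used; total reads were not analysed here. Peaks on chromosomes 1 to 22 and X were merged, and covered bases, peak numbers, edges and gaps were counted per region in Python 3.11.15 (numpy 2.4.6, scipy 1.17.1, pandas 2.3.3). The counting was checked on simulated lists. Where a value could be tested, an exact two-sided permutation test over libraries was used. Named regions were the 10 widest, the 8 most and 8 least covered and the 8 with most peaks with vitamin C, 5 on each side of the width limit, and the widest of each gene list; a few of them are not reported here. The members, gene lists and tests were chosen with earlier results of these data known. Alternatives covered the width limit, the merging of peaks, the q threshold, list length and each replicate.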

Additional observations from a re-analysis of the deposited data

How the results depend on the processing

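In each alternative run, the covered length was lower with vitamin C, and so was the number of peaks of 2 kb or more. With regions of at least 1500 bp there were 1575 regions, the log2 ratio of covered length against the held-out control was -0.54, 84.8% were met in both vitamin C lists, 69.2% of uncovered bases were at edges, the difference from narrower regions was 22.2 points and the log2 ratio of peak numbers 0.15. With at least 3000 bp these were 338, -0.40, 98.8%, 47.2%, 29.7 points and 0.66, with a covered length ratio of -0.62 and 261 regions broken in both. With at least 2000 bp shared by both controls they were 470 regions, a covered length ratio of -0.60, 99.1%, 49.6%, 32.7 points and 0.66. Joining control peaks up to 500 bp apart gave 1889 regions, -1.05, 80.3%, 737 broken, 12.3 points and a reversed peak ratio of -0.50. Joining the peaks of each list gave 167 broken and 72.1% at edges. A −log10 q of at least 5 gave a held-out ratio of -0.53, 88.2%, 67.8%, 21.4 points and 0.24. Lists cut to 9816 peaks each gave -0.65, a held-out ratio of -0.41, 96.0%, 59.2%, 11.3 points and 0.62. A minimum of 50% covered gave 38.8% met in both, and all sequences a held-out ratio of -0.48. The cause of these changes was not tested.

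With 1 library left out at a time there were 514 to 876 regions, ratios of covered length from -0.81 to -0.61, held-out ratios from -0.53 to -0.44 (vitamin C libraries only, since without a control there is no held-out one), 94.7% to 97.5% met, 240 to 537 broken, 57.8% to 63.0% at edges, 23.8 to 38.5 points and peak ratios from 0.30 to 0.94. The 514 regions and 240 broken came without control 1. Over the same settings, vitamin C minus control coverage ran from -4.97 to 1.42 points at RCC1, from -1.87 to 0.0672 at YDJC and from -5.55 to 3.51 at ACTG1, and was positive without control 1; no other of the 21 named regions tried changed sign. Taking same-numbered libraries as a replicate block gave -0.76 for covered length, -1.97 for peaks of 2 kb or more and 0.34 for peak numbers, as without it. Same-numbered libraries did not deviate together (Pearson's r 0.0042 over 876 regions), so the numbers were not taken as pairs. Peak lists hold only what passed the caller, so a bare stretch is one without a call, not one without signal, and heights rest on solved pileups.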
